A study of Mus musculus with 6 samples.

Results

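The growth hormone to STAT5 axis was followed through 10 genes in liver: the receptor Ghr, the transcription factors Stat5a and Stat5b, the feedback inhibitors Socs2 and Cish, the secreted targets Igf1 and Igfals, the repressors Bcl6 and Cux2, and A1bg, which encodes a plasma glycoprotein. They were chosen by name: every probe on the array that carries one of these gene names was used, which gave 23 probes among 56605 and 10 genes among 37074 gene names. The study compared livers of nude mice, which carry the nude mutation and lack mature T cells, after vesicle or buffer injection. Small extracellular vesicles (sEV), membrane particles released by cells, came from SW620, a human line of colorectal cancer, and were given to the sEV mice by tail vein, 20 µg at a time, in 10 injections over 21 days. Control mice were injected with PBS alone. Of 5 mice in a group, 3 gave livers for one-colour arrays, with 1 liver on each. The labels give neither sex nor age, a single cell line supplied the vesicles, and random choice is stated for the arrayed sEV mice, with nothing stated for the controls.

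Growth hormone binds a receptor dimer on hepatocytes, the kinase JAK2 then phosphorylates STAT5, and STAT5 enters the nucleus and activates genes such as Igf1, Igfals, Socs2 and Cish. In rodents the pituitary releases growth hormone in pulses in males and more continuously in females, and the liver reads this pattern through STAT5, with BCL6 acting as a repressor of female-biased genes in males and CUX2 as a repressor of male-biased genes in females. A1bg is a strongly female-biased liver gene in mice. STAT5 binds DNA as a dimer at the motif TTCNNNGAA, in which N is any base.

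Of these genes, A1bg differed most. Its normalized signal was 33.6-fold lower in sEV than in control livers, and Ghr was 1.41-fold lower on its brightest probe. The other 8 genes did not pass an adjusted p of 0.05, among them Igf1 and both Stat5 genes. Of the 10 members 2 were called lower and none higher, with limma over 19446 genes and Benjamini-Hochberg adjustment, where 17.0% of all genes were called, 7.95% as lower and 9.08% as higher. Over all genes 3312 passed, and 53.3% of these calls were higher (36.9% with arrays scaled by their median). The groups did not overlap for 6 members, 5 lower and 1 higher in sEV livers, against 18.0% of all genes lower and 22.9% higher without overlap. The median log2 difference of the members was -0.49, and that of all genes 0.03.

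**Figure D1:**
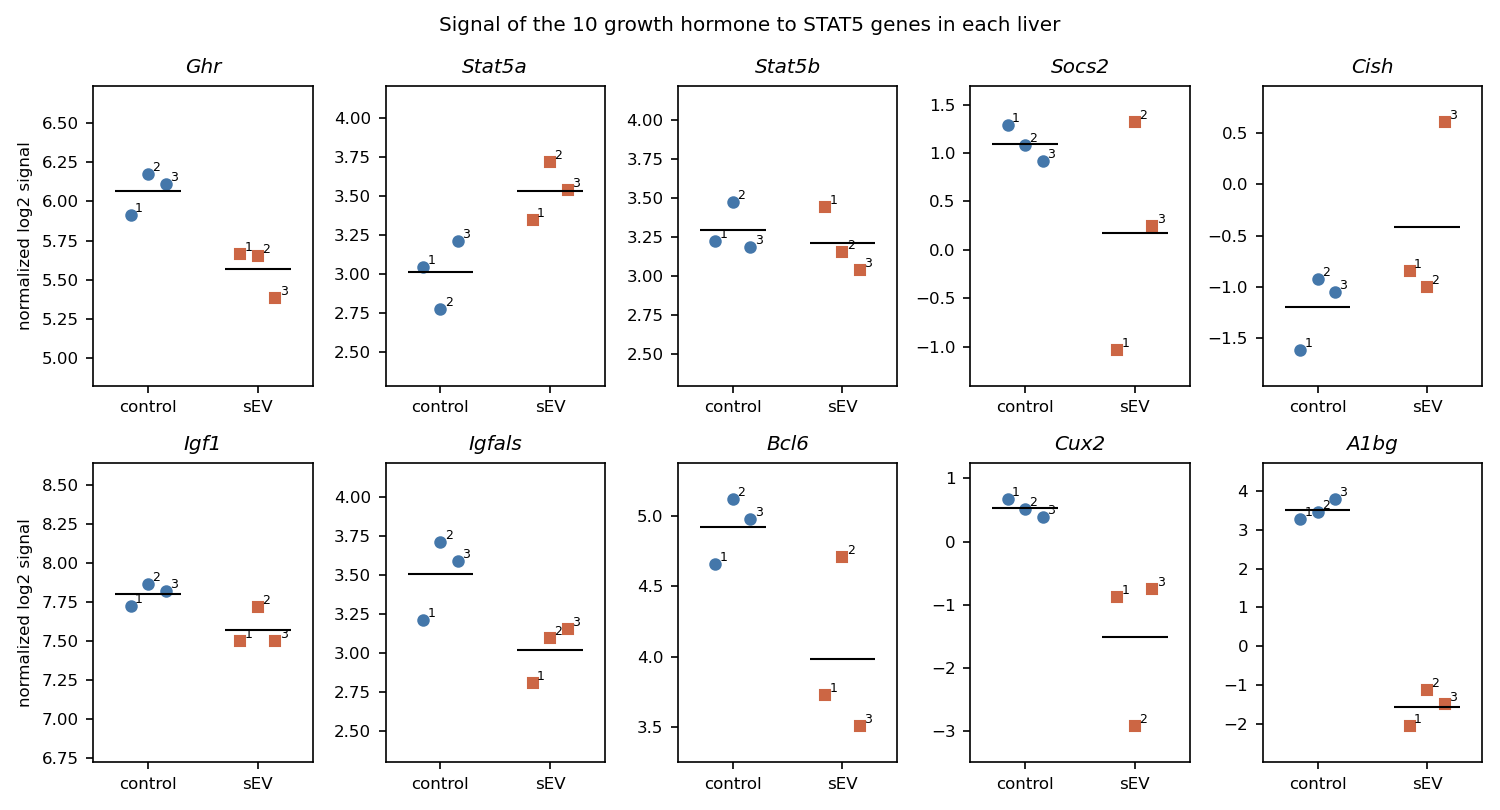
Normalized log2 signal (processed signal on a log2 scale, relative to the 75th percentile of its array) of the brightest probe of each member in each liver, control as circles and sEV as squares, with the liver's number beside each point and the group mean as a bar. Each panel has its own scale. A1bg shows a gap between groups far wider than either group's spread, whereas the sEV livers spread over more than the controls for Socs2, Cish, Bcl6 and Cux2.

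Probe and promoter sequences are shown for the genes on which the results turn. The A1bg probe (A_52_P73552) lies at chr15:60751270-60751329 on the minus strand of mm9, the build of the array files. A Ghr probe (A_52_P680941) joins parts of a Ghr transcript that lie apart in the genome. They lie between chr15:3283509-3290961 on the minus strand, a span of 7453 bases for a probe of 60. Both sequences are given 5′ to 3′ as deposited.
A1bg probe: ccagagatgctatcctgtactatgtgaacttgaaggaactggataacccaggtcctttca
Ghr probe: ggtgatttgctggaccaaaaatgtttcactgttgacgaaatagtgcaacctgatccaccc

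Promoter windows were taken from RefSeq (GRCm38.p6), from 250 bases before to 50 after each start, and searched on both strands for TTCNNNGAA, whose fixed letters read the same on each strand. Windows were listed for 9 of the 10 members, 16 in all, and 4 of these 9 genes held a match (Cish, Igfals, Bcl6 and A1bg), in 6 windows. Of all 32851 windows 8.30% held a match, as did 9.55% of 27025 genes. This motif is also read by other STAT proteins and resembles the BCL6 site. The 250 bases before the A1bg start, chr15:60921271-60921520 on the minus strand, hold 1 match, in capitals, at position -84.
A1bg upstream: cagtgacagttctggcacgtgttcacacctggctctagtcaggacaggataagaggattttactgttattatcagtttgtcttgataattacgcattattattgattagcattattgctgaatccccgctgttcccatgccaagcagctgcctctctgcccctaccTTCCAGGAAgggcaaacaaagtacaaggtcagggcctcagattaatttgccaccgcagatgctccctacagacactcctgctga
For Cish, 1 of the Bcl6 starts and 1 of the Igfals starts, 30 bases around the matches are shown, with the matches in capitals. The matches not printed are at -118 of the other Bcl6 start and at -236 of another Igfals start. The Cish stretch, chr9:107296649-107296678, runs over its start and holds 2 matches, at positions 1 and 12. One Bcl6 start has 3 matches, at -168, -122 and -88, on the minus strand within chr16:23981284-23981533, and 0.033% of all windows held 3 or more. A match at -58 precedes an Igfals start, at chr17:24878163-24878192. These matches describe the letters of the windows and were not tested for binding.
Cish: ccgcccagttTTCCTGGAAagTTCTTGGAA
Bcl6 -168: aggccgcggcTTCCTGGAAagttacttctc
Bcl6 -122: ggcaggagtgTTCTGTGAAatccttagagc
Bcl6 -88: atcgactacgTTCCGGGAAtgagagggctg
Igfals -58: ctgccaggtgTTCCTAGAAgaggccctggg

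The receptor gene Ghr was measured by 4 probes, and they did not move alike. Its brightest probe (A_55_P2500473, chr15:3277543-3277602) carries the RefSeq accession NM_001048178, the short transcript that encodes the secreted growth hormone binding protein. It read 5.91, 6.17 and 6.11 on the log2 scale in control livers and 5.66, 5.65 and 5.38 in sEV livers. All sEV livers lay below all controls, a log2 difference of -0.50 ± 0.12 (SE, n = 3 per group; adjusted p = 0.0365; 95% interval -0.79 to -0.21). The probe on NM_010284 (A_51_P499854, chr15:3268107-3268166), the full-length receptor transcript, read 5.34, 5.53 and 5.61 in controls and 5.41, 5.49 and 5.02 in sEV livers. Those groups overlapped, and the difference was -0.19 ± 0.15 (adjusted p = 0.440 over all probes; interval -0.55 to 0.18). The exon-spanning probe printed above is annotated to NM_001048178 as well, and not to NM_010284. That annotation does not make it specific to the short transcript. On the minus strand it lies upstream of both other probes, and whether it also reads the full-length transcript was not tested. It read 4.04, 4.18 and 4.19 against 3.85, 3.90 and 3.72, with no overlap and a difference of -0.31 ± 0.09 that did not pass (adjusted p = 0.0746). The largest Ghr difference came from the dimmest of the 4 probes, A_52_P633550 at chr15:3295320-3295379, annotated only to the Ensembl transcript ENSMUST00000162993 and expressed sequences. It read 2.52, 1.87 and 2.16 in controls and 0.66, 0.13 and 0.08 in sEV livers, 3.71-fold lower (adjusted p = 0.00576, passing under 17 of 18 alternatives). The difference between the short and the full-length transcript probes was not itself tested.

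The Ghr call depended on the setting. It passed under 8 of 19 alternatives, over which its log2 difference kept its sign between -0.72 and -0.40. Leaving out any 1 of the 6 arrays ended the call (adjusted p 0.0523 to 0.108, log2 difference -0.58 to -0.41). All controls and sEV liver 1 were in row 1 of the slide and sEV livers 2 and 3 in row 2. Row 2 holds no control, so a fit blocked by slide row, which called 3.68% of genes, and a fit within row 1 both set sEV liver 1 alone against the 3 controls. The Ghr difference for that liver was -0.40 and the A1bg difference -5.56, and with 1 sEV liver these fits are no check on the spread between sEV livers.

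Stat5a and Stat5b encode the transcription factors that the receptor activates, largely through phosphorylation, which arrays do not measure. The brighter Stat5a probe (A_66_P115018, chr11:100745240-100745299) read 3.05, 2.77 and 3.21 in control and 3.35, 3.72 and 3.54 in sEV livers. The sEV livers were all higher, by 0.52 ± 0.15 (adjusted p = 0.0615; interval 0.16 to 0.88). The other Stat5a probe (A_55_P1990495, chr11:100746373-100746432) went the opposite way, from 1.04, 1.14 and 1.05 to 0.75, 0.59 and 0.53, a difference of -0.45 ± 0.09 (adjusted p = 0.0283, passing under 9 of 18 alternatives). Averaging both probes left 0.04 (adjusted p = 0.803), so no direction can be given for Stat5a. Stat5b, the more abundant form in liver in general, read 3.22, 3.47 and 3.18 in controls and 3.44, 3.15 and 3.04 in sEV livers on its brighter probe (A_55_P2031043). The groups overlapped and the difference was -0.08 ± 0.14 (adjusted p = 0.707; interval -0.42 to 0.25). A second Stat5b probe, A_52_P663027, annotated to the clone AK137889, was higher in every sEV liver, by 0.44 ± 0.17 (adjusted p = 0.131).

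Socs2 and Cish are induced by STAT5 and then dampen the receptor, and neither passed. Socs2 (A_51_P107362, chr10:94875066-94875125) read 1.29, 1.09 and 0.92 in controls and -1.03, 1.32 and 0.25 in sEV livers. The sEV livers thus spanned 2.35 log2 units against 0.37 in controls, with liver 1 below every control and liver 2 above all of them. The difference was -0.92 ± 0.55 (adjusted p = 0.289; interval -2.24 to 0.40), and its size depended on which sEV liver was left out: -0.32 without liver 1, -1.49 without liver 2 and -0.95 without liver 3, none of which passed. For sEV liver 1 alone against the controls within slide row 1 it was -2.13 (adjusted p = 0.0139). The second Socs2 probe (A_55_P1992838) had the same order of sEV livers, with -1.06 in liver 1, -0.07 in liver 3 and liver 2 above the controls, which read 0.84, 0.50 and 0.41. Another, A_52_P84037, was well above background on 2 control arrays and 1 sEV array and differed by -0.47 ± 0.24 (adjusted p = 0.240), and the fourth was so on 0 arrays and was not tested. Cish (A_51_P470715, chr9:107204196-107204255) read -1.61, -0.92 and -1.05 in controls and -0.84, -1.00 and 0.60 in sEV livers, so that sEV liver 3 stood above the other livers. Its difference was 0.78 ± 0.44 (adjusted p = 0.267; interval -0.28 to 1.85), and 0.27 without that liver. Over the 19 alternatives it ranged from 0.27 to 1.07 and passed under none.

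Igf1, the main endocrine product of the axis, did not pass on any of its 3 probes in the reported setting. The brightest (A_51_P147942, chr10:87393516-87393575) read 7.72, 7.86 and 7.82 in controls and 7.50, 7.71 and 7.50 in sEV livers. The groups did not overlap, and the difference was -0.23 ± 0.10 (adjusted p = 0.149; interval -0.46 to 0.00), a 1.17-fold lower mean. The other Igf1 probes, for the RefSeq transcript NM_184052 and the clone AK050118, gave 0.21 ± 0.13 (adjusted p = 0.337) and 0.73 ± 0.54 (adjusted p = 0.398). These were far dimmer, with control means of 1.40 and -1.35 against 7.80 for the brightest. With all 3 probes averaged the sign turned, to 0.24 (adjusted p = 0.422). Igf1 was called lower under 3 of 19 alternatives, in which 18.0% to 21.4% of all genes passed. They were quantile normalization (-0.39, adjusted p = 0.0306), normexp background correction (-0.28, adjusted p = 0.0361) and the deposited value table. Igfals encodes the acid-labile subunit that keeps IGF1 in the circulation. It read 3.21, 3.71 and 3.59 in controls and 2.80, 3.10 and 3.15 in sEV livers on its single probe (A_51_P277088, chr17:25018251-25018310). All sEV livers were lower, with a difference of -0.48 ± 0.16 (adjusted p = 0.0915, interval -0.88 to -0.09). Igfals was called lower under 2 of 19 alternatives. They were normexp background correction (-0.51, adjusted p = 0.0403), which called 21.4% of genes, and the replicate block (adjusted p = 0.0472), which called 11.4%.

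Bcl6 encodes a transcriptional repressor that acts in liver and in B cells. Its brighter probe (A_52_P161495, chr16:23965160-23965219) read 4.66, 5.12 and 4.98 in controls and 3.73, 4.71 and 3.50 in sEV livers. sEV liver 2 lay within the control range and the others below it, and the difference of -0.94 ± 0.32 did not pass (adjusted p = 0.0938; interval -1.71 to -0.17). Without sEV liver 2 it was -1.31 and passed (adjusted p = 0.0164). The dimmer Bcl6 probe, A_55_P2719024 at chr16:23967780-23967839, is annotated to the Ensembl transcript ENSMUST00000135352. It fell from 0.39, 0.42 and 0.43 to -2.36, -0.85 and -3.30, 5.98-fold lower with no overlap (adjusted p = 0.0322, passing under 10 of 18 alternatives). B cell markers were also lower: 3 of the 4 measured passed as lower, Cd79a was above background on no array, and the summed marker level was 0.36 to 0.69 on the log2 scale in controls and -0.65 to -0.04 in sEV livers. Their part in the Bcl6 difference was not tested, and in these bulk samples fewer cells of a type and less RNA per cell cannot be told apart.

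Cux2, the repressor of male-biased genes in female liver, was lower in every sEV liver on all 3 probes, without passing the threshold. Its brightest probe (A_51_P180463, chr5:122310447-122310506) read 0.67, 0.52 and 0.39 in controls and -0.88, -2.92 and -0.75 in sEV livers, a 4.12-fold lower mean. The difference was -2.04 ± 0.56 (adjusted p = 0.0550; interval -3.40 to -0.68). sEV liver 2 was far below the other sEV livers on each probe. Without it the difference shrank to -1.34 and passed (adjusted p = 0.00675), and 7 of 19 alternatives passed in all. The second probe, A_66_P122699, read 0.40, 0.16 and 0.17 in controls and -0.70, -2.59 and -1.13 in sEV livers (adjusted p = 0.0551). The third, A_55_P2720570, differed by -2.12 ± 0.85 (adjusted p = 0.145) and was well above background on 2 of 3 sEV arrays.

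A1bg was the member with a clear separation. Its probe read 3.27, 3.45 and 3.79 in control livers and -2.06, -1.14 and -1.50 in sEV livers, all well above background. The lowest control stood more than 4 log2 units above the highest sEV liver, whereas livers of a group lay within 0.53 and 0.92 of each other. The log2 difference was -5.07 ± 0.25 (adjusted p = 0.000293; interval -5.68 to -4.46). Among 19446 genes it ranked sixth by fitted fall and 35th by the size of limma's moderated t. It passed under all 19 alternatives, at -5.56 to -4.32, with a highest adjusted p of 0.00464.

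**Figure D2:**
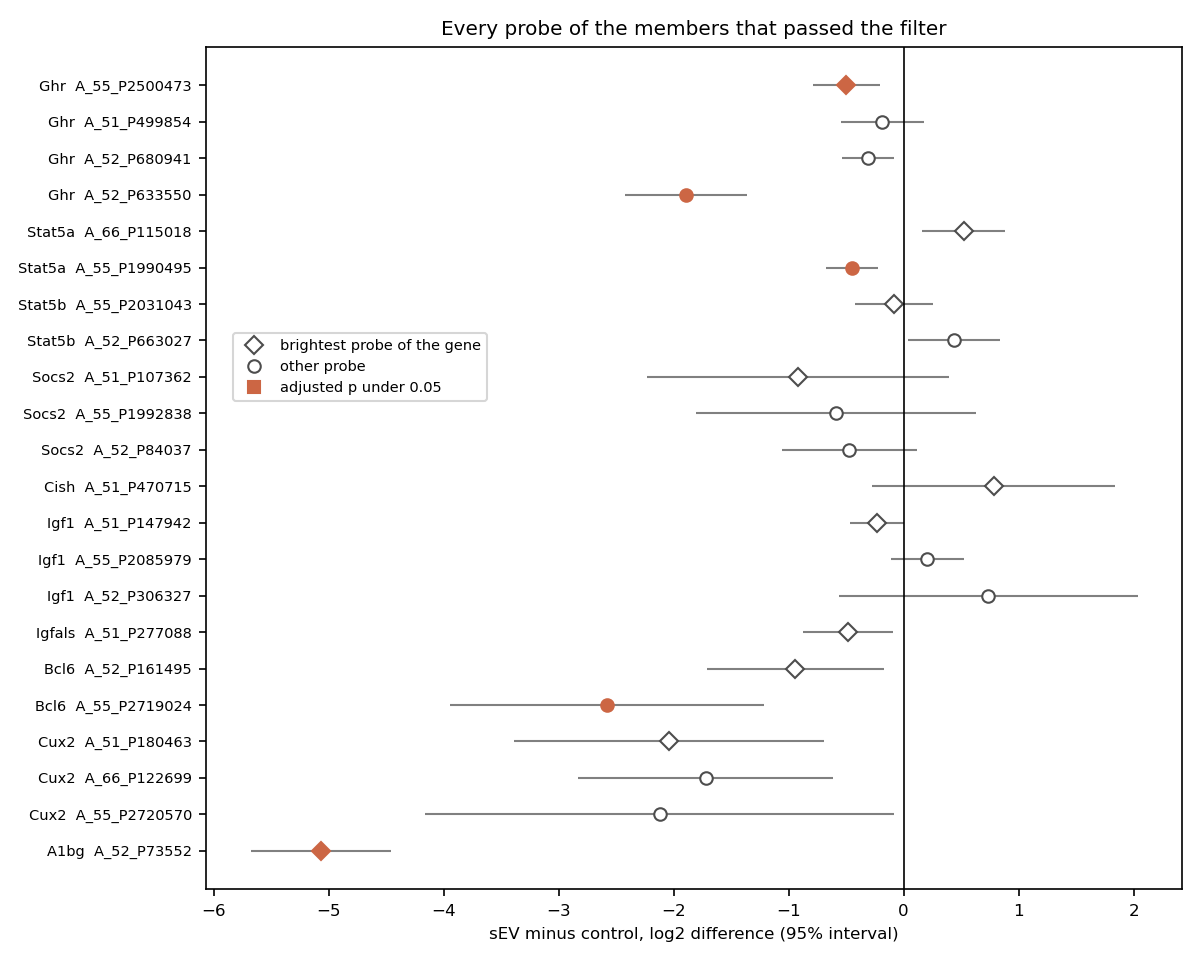
Log2 difference (sEV minus control) of each of the 22 member probes that passed the filter, with its 95% interval from limma, diamonds for the brightest probe of a gene, circles for the others, and filled symbols for an adjusted p under 0.05 over all probes. The Stat5a probes fall on opposite sides of 0, and the Cux2 probes all lie below it with wide intervals.

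Of the 23 member probes 22 passed the filter, and 5 were called lower and none higher: A1bg, a pair of Ghr probes, the dimmer Bcl6 probe and the dimmer Stat5a probe. Over all 28760 probes tested, 14.1% were called, 6.50% as lower. The groups did not overlap for 11 member probes lower and 2 higher in sEV livers, against 16.4% and 22.6% of all probes. With normexp background correction 6 members passed (Ghr, Igf1, Igfals, Bcl6, Cux2 and A1bg), all lower, where 21.4% of all genes passed.

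**Figure D3:**
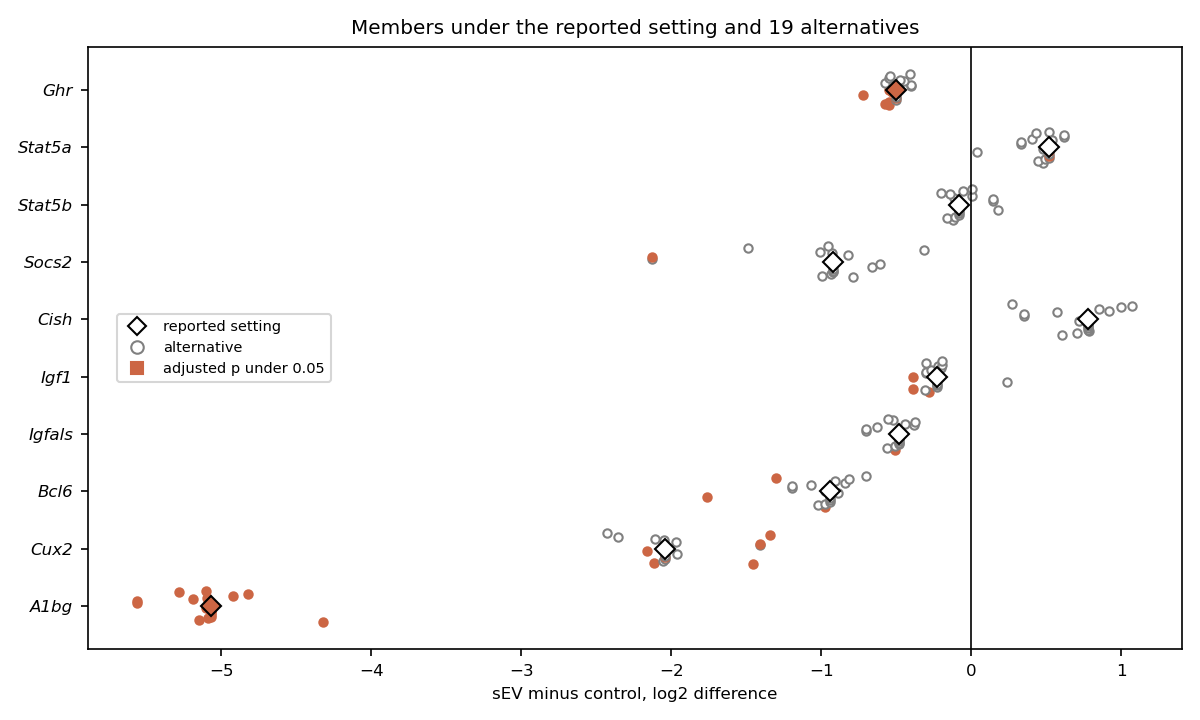
Log2 difference (sEV minus control) of each member under the reported setting (diamond) and 19 alternatives (circles), filled where the adjusted p was under 0.05. A1bg is filled throughout, Stat5b and Igf1 have values on both sides of 0, and Ghr keeps its sign with 8 of 19 alternatives passing.

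Genes that growth hormone is known to regulate by sex formed the largest listed programmes around the axis. Among 30 female-biased liver genes the test called 10 lower and 5 higher and left 15 uncalled. Their median log2 difference was -0.40. Hao2, a peroxisomal hydroxyacid oxidase, fell from 3.89, 3.75 and 3.91 in controls to 0.45, 0.35 and -0.43 in sEV livers, 13.3-fold lower (adjusted p = 0.000631). Its groups were separated by more than 3 log2 units. The cytochrome P450 genes Cyp2c69 and Cyp2c40 fell by 1.78 ± 0.12 (adjusted p = 0.000892) and 1.39 ± 0.12 (adjusted p = 0.00236) on the log2 scale; they are close paralogs, so their probes may share signal. Tox, a DNA-binding protein gene, rose by 0.82 ± 0.09 (adjusted p = 0.00513).

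Of 24 male-biased liver genes, 21 were measured, with 4 called lower, 1 called higher, 16 uncalled and a median of 0.08. Mup7 was not on the array under that name, and Serpina12 and Moxd1 did not pass the filter. Hsd3b5, a steroid dehydrogenase, read 2.14, 1.26 and 1.80 in controls and -2.26, -0.71 and -2.05 in sEV livers, 10.6-fold lower (adjusted p = 0.00714). Slco1a1, an organic anion transporter, fell from 2.80, 2.01 and 2.61 to -1.20, -0.19 and -0.63, 8.84-fold lower (adjusted p = 0.00332). Mup3, one of the major urinary protein genes and a member of a family of near-identical copies, fell by 1.52 ± 0.17 (adjusted p = 0.00456). Elovl3, a fatty acid elongase, rose by 1.56 ± 0.31 (adjusted p = 0.0229). Its call ended under 7 of 19 alternatives, while Hsd3b5, Slco1a1, Mup3 and the female-biased genes named above passed under all of them. Calls thus made up 5 of the 21 measured genes here and 15 of the 30 female-biased genes, against 17.0% of all genes tested. These lists and those below were chosen with earlier results of these data known. Their shares of calls are therefore descriptions and no test of the programmes. Of the 21 measured male-biased genes 8 had a negative difference and of the 30 female-biased genes 22, where the median over all genes was 0.03. The difference between the lists was not tested.

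The sex of the mice was checked in the arrays because these lists depend on it. Each of the 6 arrays had Xist well above background, while Uty, Ddx3y and Eif2s3y, genes of the Y chromosome, reached that level on 0. Another gene of that chromosome, Kdm5d, was so on 0 to 3 arrays, depending on which of its 6 probes is read. Its brightest probe past the filter was dim, at -3.84, -4.75 and -3.79 in controls and -3.68, -3.77 and -3.78 in sEV livers. Apart from Kdm5d, these readings are those of female livers, and the labels do not state the sex.

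**Figure D4:**
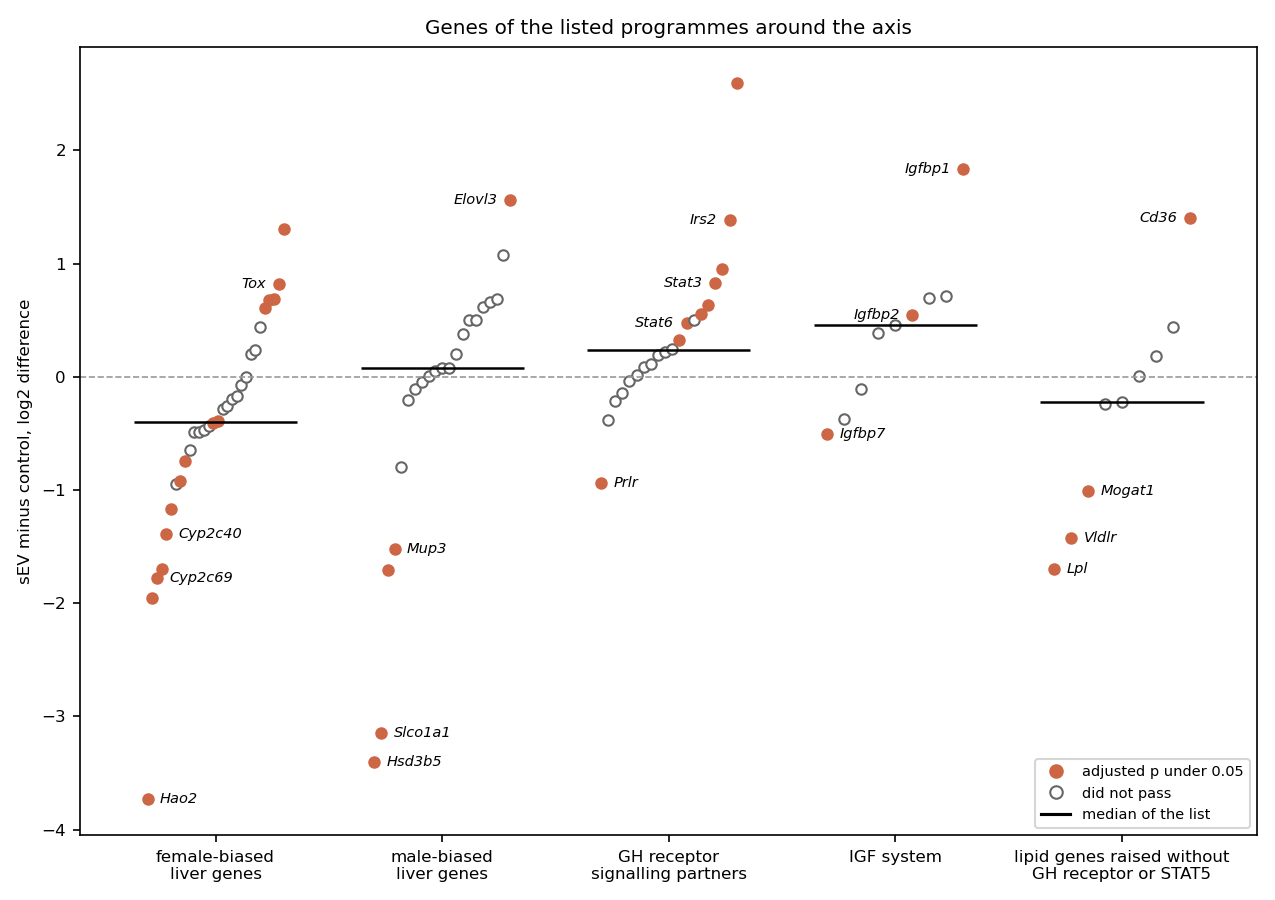
Log2 difference (sEV minus control) of each measured gene of the 5 listed programmes around the axis, sorted within each list, filled where the adjusted p was under 0.05, with the list's median as a bar and the genes chosen by the naming rule labelled. The female-biased list has its median at -0.40, with Hao2 lowest, and the signalling partners have theirs at 0.24.

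Among other genes of growth hormone receptor signalling, more were called higher than lower. The 20 partners had 8 higher calls, 1 lower and 11 without a call, at a median of 0.24. Over all genes 9.08% were called higher and 7.95% lower, at a median of 0.03. With arrays scaled by their median, 6 partners were called higher and 1 lower. Jak2, the receptor's kinase, differed by 0.19 ± 0.10 and did not pass. Prlr, the prolactin receptor, a close relative of Ghr, read 4.46, 4.63 and 4.54 in controls and 3.82, 3.56 and 3.44 in sEV livers, a fall of 0.94 ± 0.12 (adjusted p = 0.00693). Irs2, an adaptor of the insulin receptor, rose from 2.50, 3.09 and 2.55 to 3.95, 3.96 and 4.38, 2.61-fold higher (adjusted p = 0.00967). Stat3 and Stat6, which transmit cytokine signals, rose by 0.83 ± 0.13 (adjusted p = 0.0121) and 0.48 ± 0.08 (adjusted p = 0.0153). Calls were kept under 18 of 19 alternatives for Prlr, 17 for Irs2, 16 for Stat3 and 14 for Stat6. Socs3 dampens cytokine receptor signals and was named after its values were seen. It rose from 0.80, 0.95 and 1.53 to 2.48, 4.58 and 4.02, 6.05-fold higher (adjusted p = 0.0241).

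Of 13 genes of the IGF system 9 were measured, with 2 called higher, 1 called lower, 6 uncalled and a median of 0.46. The shares over all genes were 9.08% higher and 7.95% lower. Igfbp1, a binding protein that limits free IGF1, read 5.64, 6.37 and 6.01 in controls and 7.94, 7.67 and 7.92 in sEV livers. Every sEV liver was higher, by 3.57-fold (adjusted p = 0.00406), and this held under all 19 alternatives. Igfbp2 was higher by 0.55 ± 0.14 (adjusted p = 0.0441) and Igfbp7 lower by 0.51 ± 0.10 (adjusted p = 0.0241), but these passed under 6 and 10 alternatives only.

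A list of lipid genes known to rise in livers that lack the growth hormone receptor or STAT5 held 10 genes, of which 9 were measured. The calls were 3 lower and 1 higher, 5 were uncalled, and the median was -0.22. Among all genes 7.95% were called lower and 9.08% higher. Lpl, lipoprotein lipase, fell from 4.62, 4.46 and 3.95 to 2.62, 2.81 and 2.51, 3.24-fold lower (adjusted p = 0.00456). Mogat1, a monoacylglycerol acyltransferase, fell by 1.01 ± 0.10 (adjusted p = 0.00326) and Vldlr, a lipoprotein receptor, by 1.42 ± 0.30 (adjusted p = 0.0261). Cd36, a fatty acid transporter, was higher, by 1.40 ± 0.35 (adjusted p = 0.0411), and passed under 8 of 19 alternatives, against 11 for Vldlr, 18 for Lpl and 19 for Mogat1. Pparg, a regulator of lipid storage, differed by -0.22 ± 0.11 and did not pass.

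The genes whose pattern over the 6 livers was most like that of each called member were found by Pearson correlation, given as a description. For A1bg they were Bhlhb9 and Prr11 (r = 0.997 each) and Rgs7bp (r = 0.997), which were all lower in sEV livers. For Ghr they were Sacm1l (r = 0.999), Gnl3l (r = 0.998) and Serpina6 (r = 0.997), of which Serpina6, the corticosteroid-binding globulin gene, was lower by 0.77 ± 0.15 (adjusted p = 0.0204). All these livers share the group difference, which sets much of such a correlation.

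The arrays had 62976 spots each, with 49.9% to 54.7% of the 59305 non-control spots well above background and 0 saturated. All 10 hepatocyte markers were well above background on all arrays, with 2 higher and a summed level of 12.5 to 12.7 in controls and 12.7 to 12.9 in sEV livers. Over all genes 9.08% were called higher and 7.95% lower. Macrophage markers were higher for 4 of 10 (7.42 to 7.79 against 7.94 to 8.07) and neutrophil markers for 4 of 10 (7.21 to 7.49 against 7.45 to 7.74). Among the neutrophil markers Csf3r (-0.89) and Ly6g (-0.07) went the other way without passing. T and NK cell markers went both ways: 2 of 4 measured were higher (Nkg7 and Ncr1), Cd4 was lower in every sEV liver without passing (-0.48), Cd3g and Klrb1c were above background on no array, and the summed level was lower, at 4.48 to 4.83 in controls and 4.29 to 4.40 in sEV livers. Erythroid markers were lower for 4 of 7 measured (7.74 to 8.16 against 5.59 to 7.55), stellate cell markers for 3 of 8 (6.73 to 7.23 against 6.45 to 6.88), and none of the 7 endothelial markers passed. The part of these shifts in the members' differences was not tested.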

How the data were processed

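Liver RNA of 6 mice was labelled with Cy3 and hybridised to Agilent one-colour arrays, per the labels' protocols. Intensities in the deposited scanner files had been background-subtracted and detrended within each array by Feature Extraction 10.7.1.1, per the file headers, and not scaled between arrays. The deposited value table holds log2 values, used as an alternative. Its columns all have a median of 4.50, and its scaling steps are not stated in the labels or headers.

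Processed signals were scaled to the 75th percentile of their array on a log2 scale. Control spots and 91 to 171 outlier spots an array were dropped, and repeat spots of a probe averaged. A probe had to be well above background on 3 or more of the 6 arrays, and the brightest one stood for its gene. Groups, taken from the treatment labels, were tested in R 4.3.3 with lmFit and eBayes of limma 3.58.1, with Benjamini-Hochberg adjustment over 19446 genes, or over 28760 probes for single probes, at 0.05. The ± is the fit's standard error. With 3 livers in each group, the smallest p of an exact permutation test is 0.1. The labels give 1 liver per array, so p-values measure the spread between these livers, and the number of arrays limits the precision. The fit was also run on simulated data with independent normal errors and limma's own variance model. Such data hold no slide-row effect and no outlying liver, so they are a check of the code only. All arrays shared 1 slide and 1 scan.

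Members and lists were chosen with earlier results of these data known. Besides the members, the text names up to 4 genes of each list, those with the largest moderated t among the genes past the threshold, and the 3 most alike genes of each called member. Motifs were searched and figures drawn in Python with matplotlib (versions 3.11.15 and 3.10.9). Alternatives changed background correction, scaling, filter, probes per gene, variance model, array weights, source table, blocks and arrays left out.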

Additional observations from a re-analysis of the deposited data

How the results depend on the processing

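Of 190 values of the 10 members under 19 alternatives, 155 kept their direction and side of the threshold, 11 lost the call (all Ghr), 18 gained it and 6 changed sign. The sign changes were Stat5b with probes averaged (0.18), with slide row as a block (0.15), within slide row 1 (0.15), and without 1 liver at a time (range -0.20 to 0.0061, above 0 without control liver 2 and, at 0.0035, without sEV liver 3), and Igf1 with probes averaged (0.24). The Socs2 probe A_52_P84037 also changed sign, to 0.050, with normexp. The causes were not tested.

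With normexp, 6 members, 13 member probes and 8 male-biased genes passed, against 2, 5 and 5. With a variance trend these were 4, 9 and 8, and with array weights 8 member probes and 8 male-biased genes passed. Calls over all genes rose too, from 17.0% to 21.4%, 19.8% and 20.1% under these settings. Requiring signal on all 6 arrays gave 4 members (19.2% of all genes), and requiring it on 1 array gave 1 member and 3 member probes (11.5%). Without a filter more genes were tested, and 810 genes, 1 member, 2 member probes, 2 signalling partners, 1 IGF gene, 3 male-biased, 7 female-biased and 2 lipid genes passed, against 3312 genes, 9 partners, 3 IGF genes, 15 female-biased and 4 lipid genes as reported. With slide row as a block, which rests on 1 sEV array, the counts were 715 genes, 1 member, 2 member probes, 2 partners, 1 IGF gene, 6 female-biased and 2 lipid genes. Within slide row 1 they were 594 genes, 1 partner, 1 IGF gene, 9 female-biased genes and 1 lipid gene. Leaving out 1 array at a time gave 1348 to 2767 genes, 1 to 3 members, 2 to 7 member probes, 3 to 9 partners, 1 to 2 IGF genes, 3 to 5 male-biased, 7 to 12 female-biased and 2 to 3 lipid genes.

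Same-numbered livers of the groups had deviations that correlated at 0.02, 0.16 and 0.02, not all over 0.1, so the numbers were not taken as pairs. With a replicate block 2210 genes, 2 members and 3 member probes passed.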

Other observations

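The order of the sEV livers in the sex-biased lists was looked at after the values were seen. Of the 21 measured male-biased genes, 17 were highest in sEV liver 2 among the sEV livers, as were 33.8% of all 19446 genes. Among controls, 11 of the 21 were highest in control 2, as were 41.8% of all genes. Of the 30 female-biased genes 16 were highest in sEV liver 1, 5 in liver 2 and 9 in liver 3, against 36.3%, 33.8% and 29.9% of all genes. No test was made of these counts. Of the 10 members, 5 were highest in sEV liver 2 among the sEV livers: Stat5a, Socs2, Igf1, Bcl6 and the female-biased A1bg. Cux2 was lowest in that liver. The male-biased P450 gene Cyp4a12a, named after its values were seen, read -3.43, -0.15 and -1.44 in sEV livers 1, 2 and 3, and Egfr, a growth factor receptor gene of the same list, 4.51, 5.79 and 6.07. For 8 of the 10 members the sEV livers spanned a wider range than the controls, against 53.0% of all genes. These are single livers, so the differences between them have no replicate.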
